A study of Mus musculus with 14 samples.

Results

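The collagen genes of the mouse were followed through RNA sequencing of sorted male germ cells. Members were the rows of the gene tables whose symbol is Col, digits, a and digits, which gave 44 genes of the 38444 genes in both tables together. The spermatogonia table listed 43 of them and the spermatocyte table all 44, with Col10a1 the gene listed for spermatocytes alone. There were 14 libraries in 4 groups. Spermatogonia (Spg), a name for the germ cells that precede meiosis, gave 3 KO and 3 WT libraries, and spermatocytes (Spc), the germ cells in meiosis, gave 4 of each. KO stands for animals homozygous for a knockout of the DNA methyltransferase gene Dnmt3c (Dnmt3CKO/KO), WT for their wild-type littermates, all on a C57BL/6 background, and the labels name no treatment. Spermatogonia came from testes at P14 and were sorted as live cells positive for Ep-CAM and negative for β2-microglobulin. Spermatocytes came from mice older than 20 days and were sorted by DNA stain. The loss of DNMT3C leaves young retrotransposon promoters without DNA methylation, and the study compared the 2 genotypes at both stages to follow retrotransposon RNA. Collagen RNA was not its subject.

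Collagens are secreted or membrane-bound proteins of the extracellular matrix, whose chains wind into helices and assemble into fibrils, sheets or filaments. In the testis they are known as products of the cells around and between the seminiferous tubules and of the Sertoli cells, and they form the tubule wall and the interstitial matrix. Here they were followed beside marker genes of those cells, since a germ cell sort can hold RNA of other cells. In a bulk library, fewer cells of a type and less RNA per cell cannot be told apart.

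Several collagen genes lie head to head and share a start region, which is why the sequences of that region are shown first for Col4a1 and Col4a2, the chains of the most common basement membrane collagen. Col4a1 (chr8:11198423-11312826, minus strand) and Col4a2 (chr8:11312805-11449287, plus strand) overlap at their starts. Col4a4 and Col4a3 lie 72 bases apart on chromosome 1, and Col4a6 and Col4a5 lie 1309 bases apart on chromosome X, both pairs also head to head. The 300-base windows below run from 250 bases before to 50 bases after the start in RefSeq on GRCm38.p6, 5′ to 3′ on the strand of the gene, and those of Col4a1 and Col4a2 share 78 bases. Beside the collagen IV pair they show Col1a2, which had the highest mean CPM of the genes called higher in KO spermatocytes, and Col16a1 and Col20a1, both lower there. Capitals mark the TATA box (TATAAA), the CCAAT box (CCAAT) and the GC box (GGGCGG), searched on both strands.
Col4a1, chr8:11312777-11313076, minus strand: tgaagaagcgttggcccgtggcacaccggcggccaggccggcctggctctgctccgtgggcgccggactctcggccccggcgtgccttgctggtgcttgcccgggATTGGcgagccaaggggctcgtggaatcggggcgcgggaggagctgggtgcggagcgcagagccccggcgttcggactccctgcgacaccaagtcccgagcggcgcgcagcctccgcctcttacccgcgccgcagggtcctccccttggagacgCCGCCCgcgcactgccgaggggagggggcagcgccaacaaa
Col4a2, chr8:11312555-11312854, plus strand: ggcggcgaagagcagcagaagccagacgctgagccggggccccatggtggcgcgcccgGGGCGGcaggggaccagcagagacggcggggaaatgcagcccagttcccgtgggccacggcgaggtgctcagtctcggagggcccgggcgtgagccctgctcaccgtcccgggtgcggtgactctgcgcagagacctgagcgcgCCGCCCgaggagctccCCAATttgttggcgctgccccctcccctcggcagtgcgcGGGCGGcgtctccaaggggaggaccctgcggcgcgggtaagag
Col1a2, chr6:4505368-4505667, plus strand: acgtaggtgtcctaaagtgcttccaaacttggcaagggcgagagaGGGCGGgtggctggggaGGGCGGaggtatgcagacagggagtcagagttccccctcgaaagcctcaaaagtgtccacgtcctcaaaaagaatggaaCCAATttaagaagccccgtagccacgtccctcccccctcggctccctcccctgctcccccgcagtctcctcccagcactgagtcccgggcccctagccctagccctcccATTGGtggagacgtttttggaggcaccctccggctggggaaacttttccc
Col16a1, chr4:130047590-130047889, plus strand: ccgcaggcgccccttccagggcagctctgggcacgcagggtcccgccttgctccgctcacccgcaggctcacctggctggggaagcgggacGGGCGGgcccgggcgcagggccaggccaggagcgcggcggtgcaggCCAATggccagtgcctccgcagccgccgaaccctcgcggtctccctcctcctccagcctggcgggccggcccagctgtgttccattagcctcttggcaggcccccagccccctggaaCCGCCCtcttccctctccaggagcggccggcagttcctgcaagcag
Col20a1, chr2:180986285-180986584, plus strand: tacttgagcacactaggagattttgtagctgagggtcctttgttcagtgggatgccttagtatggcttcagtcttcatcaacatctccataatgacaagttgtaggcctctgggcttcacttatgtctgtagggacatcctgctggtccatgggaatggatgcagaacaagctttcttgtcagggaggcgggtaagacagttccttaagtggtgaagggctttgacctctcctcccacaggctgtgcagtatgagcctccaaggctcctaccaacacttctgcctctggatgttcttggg

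Windows were found for 35 of the 44 collagen genes, in 38 windows. The GC box letters stood in 23 of these 38 windows and in 35.7% of the 32851 windows of all genes. For the CCAAT box the figures were 13 of 38 and 37.4%, and for the TATA box 5 of 38 and 13.6%. Only 2 pairs of matches in collagen windows overlapped each other, both of them GC boxes. These matches describe letters in a window and were not tested against expression. The window of Col20a1 held none of the 3 motifs and that of Col16a1 held 3 matches, although both genes were lower in KO spermatocytes.

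Total counts ran from 40555726 to 53323651 per library. Transcript counts do not check the genotype here, since Dnmt3c stood at 1.21 to 2.34 CPM (TMM-scaled counts relative to library size) in KO and 1.13 to 1.88 CPM in WT spermatogonia, while spermatocytes held 0.874 to 1.03 CPM (KO) and 0.277 to 0.779 CPM (WT). KO and WT therefore mean the libraries labelled so. The labelled stage was checked against its markers. Summed over 5 pachytene genes (Acr, Ccna1, Ldhc, Pgk2 and Piwil1), WT spermatocyte libraries held 5476 to 10673 CPM and KO spermatocyte libraries 17.2 to 42.6 CPM, so that these defining markers were near 0 in the KO libraries labelled spermatocytes. A sum over 6 early meiotic genes was 1177 to 2257 CPM in KO and 1173 to 2246 CPM in WT spermatocytes. It was 639 to 1040 CPM in KO and 949 to 1166 CPM in WT libraries labelled spermatogonia, and Dmc1 of that list, a gene of meiotic recombination, stood higher there (72.2 to 104 CPM) than in WT spermatocytes (5.11 to 43.8 CPM). The libraries labelled spermatogonia thus held early meiotic RNA. The early meiotic sums did not overlap between the stages within a genotype, but in WT they nearly met, at 1166 and 1173 CPM. Between the WT stages, Prdm9 went the way of Dmc1, Sycp3 and Hormad1 went the other way without overlap, and Sycp1 and Meiob overlapped. In KO spermatocytes Dmc1 stood at 114 to 128 CPM. The pachytene sum did set the WT stages apart, with 62.8 to 829 CPM in WT spermatogonia. Libraries of spermatocyte replicates 1 and 4 resembled each other in both genotypes more than any other pair, though they differed by more than counting noise, and were kept as separate samples. Nothing in the labels states whether libraries came from separate animals, so p-values measure the spread between these libraries.

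Collagen RNA was far more abundant in KO spermatocytes than in the other 3 groups. Summed over all members and given relative to the gene counts of the library without TMM factors (unscaled CPM), collagen RNA stood at 11066, 10677, 1239 and 9619 unscaled CPM in KO spermatocytes (replicates 1 to 4). The WT spermatocyte libraries held 457, 361, 477 and 432 unscaled CPM in the same order. Replicate 3 of KO stood far below the other KO libraries and was still 2.60 times the highest WT library. The mean was 8150 ± 4648 (SD, n = 4) in KO and 432 ± 50.7 (n = 4) in WT spermatocytes, a ratio of 18.9. The size of this ratio depended on the scaling: on TMM-scaled CPM the means were 6823 ± 3962 and 628 ± 109, a ratio of 10.9, and the lowest KO library was 1.31 times the highest WT library. In spermatogonia the 2 genotypes overlapped, with 515, 481 and 464 unscaled CPM in KO and 512, 514 and 429 in WT (means 487 ± 25.9 and 485 ± 48.2, n = 3 each). As a share of gene counts, collagens made up 1.11% (95% Wilson interval 1.104 to 1.11%) in KO spermatocyte replicate 1 and 0.0361% (0.0355 to 0.0366%) in WT replicate 2, the lowest of all libraries. These intervals cover counting error only.

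**Figure D1:**
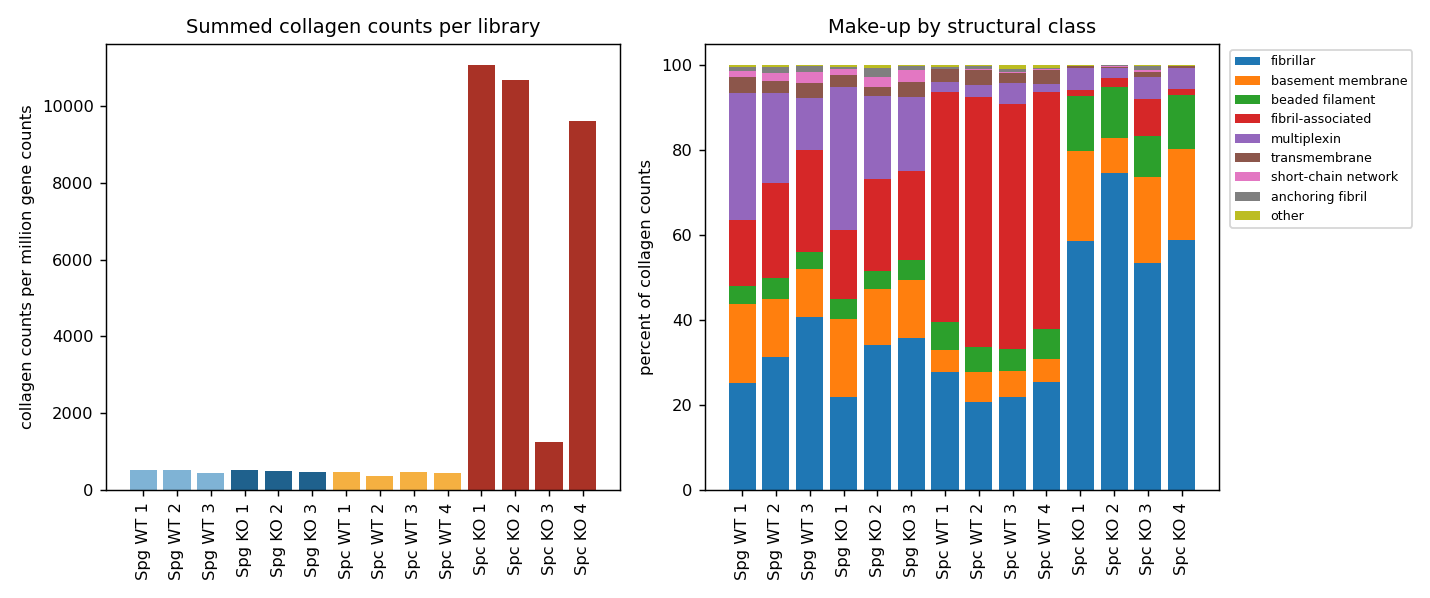
Left, summed collagen RNA as unscaled CPM in each library (bars, linear axis from 0). Right, the percent of collagen counts in each structural class. KO spermatocyte replicates 1, 2 and 4 reach 9619 to 11066 unscaled CPM and replicate 3 reaches 1239, and fibrillar collagens form 53.4 to 74.6% of the collagen counts in these 4 libraries.

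The leading collagens differed between WT spermatocytes, KO spermatocytes and spermatogonia. In WT spermatocytes 54.2 to 58.9% of collagen counts came from fibril-associated collagens, which bind to the surface of fibrils, and Col16a1 alone gave 34.6 to 45.02%. In KO spermatocytes the fibril-associated class gave 1.35 to 8.59%, and the fibrillar collagens of the interstitial matrix gave 53.4 to 74.6%. Spermatogonia held a more even mixture. There the multiplexin class, which was nearly all Col18a1, gave 12.4 to 33.7% of collagen counts and the fibrillar class 21.8 to 40.7%.

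Levels between genes were compared per kilobase of exon, on CPM scaled over all 14 libraries. The highest mean levels in WT spermatogonia were 11.9 CPM per kb for Col18a1, 8.36 for Col5a1 and 4.68 for Col22a1. Col18a1 encodes a heparan sulfate proteoglycan core of basement membranes, Col5a1 a regulator of fibril assembly and Col22a1 a collagen of tissue junctions. KO spermatogonia had the same 3 genes in front, at 13.1, 8.198 and 5.06 CPM per kb. In WT spermatocytes Col16a1 led with 36.8 CPM per kb, followed by Col2a1 with 9.23 and Col20a1 with 6.13. The leaders in KO spermatocytes were Col1a1 with 162, Col3a1 with 143 and Col1a2 with 119 CPM per kb, the chains of the main interstitial collagens I and III.

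**Figure D2:**
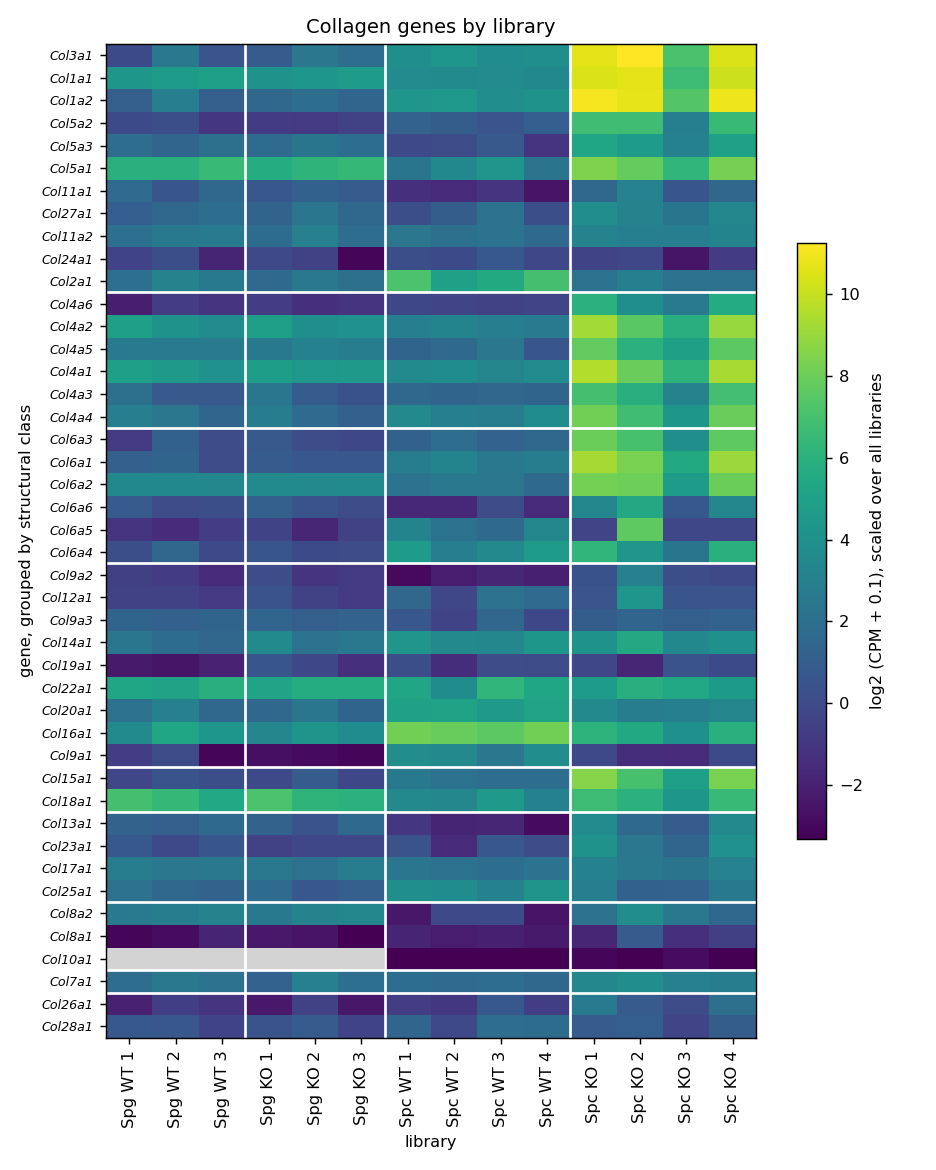
Log2 of CPM plus 0.1, scaled over all libraries, for the 44 collagen genes (rows, grouped by structural class and ordered by the genotype difference in spermatocytes) in 14 libraries (columns); grey marks Col10a1, which the spermatogonia table did not list. Most rows are brightest in KO spermatocytes, and Col2a1, Col16a1, Col20a1 and Col9a1 are brightest in WT spermatocytes.

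The genotypes were compared in the libraries labelled spermatogonia. None of the 41 collagen genes tested passed an adjusted p of 0.01 in edgeR, where 0.0741% of all genes and transposable element (TE) subfamilies tested did. DESeq2 called 1 of 43 members (1.82% of the features it fitted), and 1 of the 41 had an unadjusted p under 0.05 in edgeR (7.26% of all features), in both cases Col19a1. Log2 fold changes of the members ran from -0.83 to 2.78, with a median of -0.01 against 0.02 over all features. The KO and WT libraries were separated without overlap for 2 members, Col19a1 and Col23a1, where 11.9% of all features tested were separated in either direction. Col8a1 and Col9a1 were too low to be tested.

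The most abundant collagens of spermatogonia showed the size of the spread between libraries. Col18a1 stood at 165, 86.2 and 76.5 CPM in KO and at 150, 105 and 50.8 CPM in WT spermatogonia, in the order of replicates 1 to 3. Replicate 1 was the highest in both genotypes, and so it was for Col4a1, Col4a2, Col4a3 and Col4a4. The sum over 8 Sertoli cell markers was also highest in these libraries, 762 CPM in KO replicate 1 and 583 CPM in WT replicate 1 against 152 to 270 CPM in the other 4, and its part in the collagen values was not tested. Col5a1 stood at 62.5, 86.2 and 99.1 CPM in KO and at 75.5, 76.3 and 106 CPM in WT, for which the log2 fold change was -0.06 with an SE of 0.21 and changed sign without KO replicate 1 (0.12) or WT replicate 3 (0.13). Col1a1 stood at 21.4, 24.2 and 32.1 CPM in KO and at 25.2, 33.5 and 34.5 CPM in WT. For each of these genes the genotypes overlapped.

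Col9a1, a chain of the cartilage collagen IX, gave 30, 46 and 1 counts in WT and 3, 2 and 1 counts in KO spermatogonia. The 2 WT libraries with counts above the floor of 3 were also those with the most pachytene marker RNA, 178 CPM in replicate 1 and 829 CPM in replicate 2 against 62.8 CPM in replicate 3 and 13.1 to 16.1 CPM in KO. Whether these cells contributed the Col9a1 counts was not tested.

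In spermatocytes 29 of the 43 collagen genes tested were called between the genotypes, where 13124 of all 22848 features were. Most of these member calls were higher in KO. Of the 43 members tested, 25 were called higher in KO, where 27.4% of all features were, and 4 were called lower, where 30.1% were. The median log2 fold change of the members was 3.43 against 0.11 over all features. Every KO library stood above every WT library for 26 members (33.7% of all features) and below for 6 (33.8%). Scaling by library totals moved the median of all features to 0.79 and gave 29 higher (36.5% of all features) and 4 lower members (21.7%), so a fold change here is relative to a centre that depends on the scaling. With the replicate number as a block, 22 members were called higher (23.5% of all features) and 5 lower (27.4%). By class, 8 of 11 fibrillar, 6 of 6 basement membrane, 4 of 6 beaded filament, 2 of 4 transmembrane and both multiplexin collagens rose, but only 1 of 9 fibril-associated collagens did, while 3 of those fell.

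**Figure D3:**
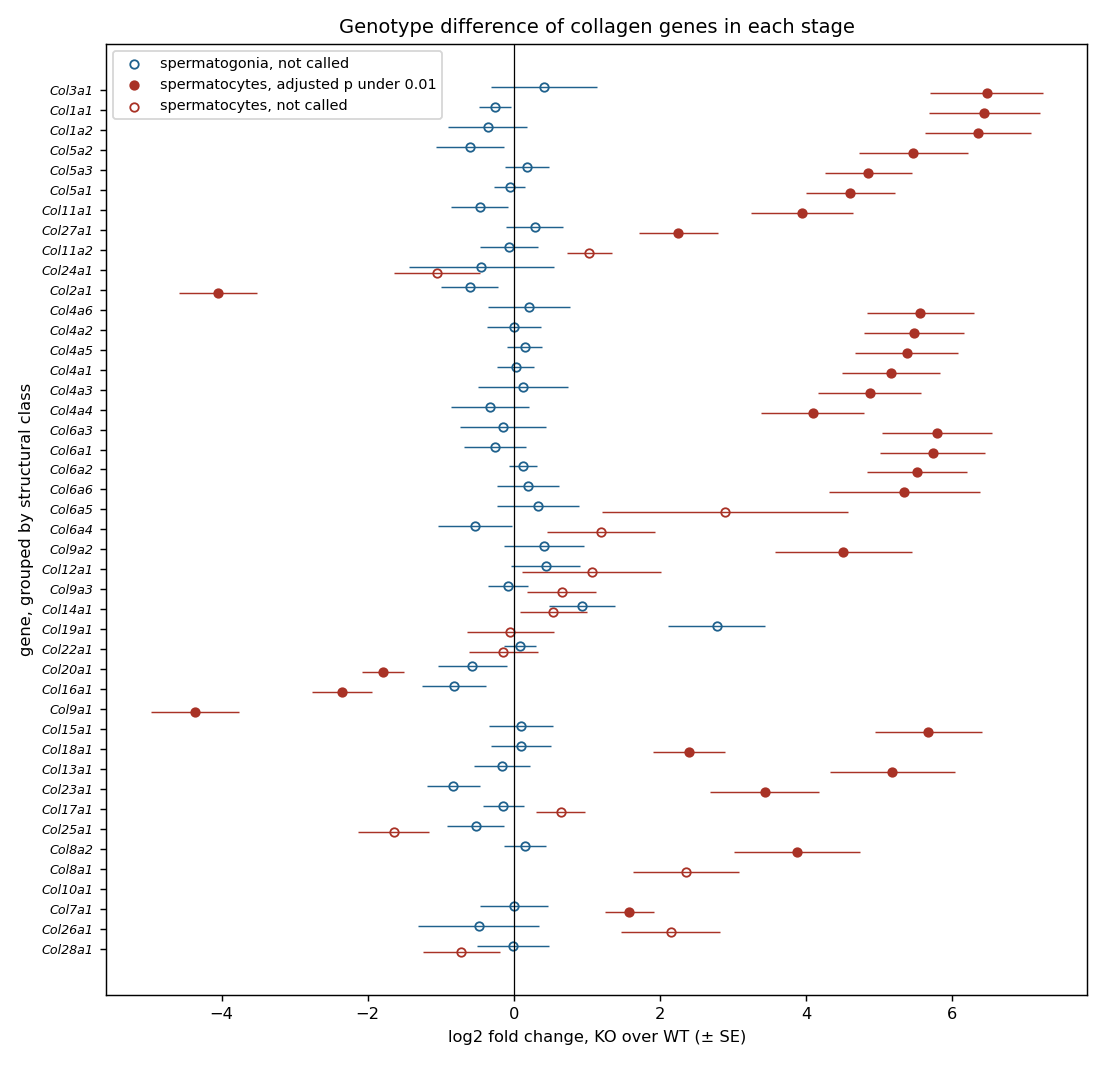
Log2 fold change of KO over WT with its standard error for each collagen gene, in spermatogonia (blue) and spermatocytes (red); filled points passed an adjusted p of 0.01 in edgeR. In spermatogonia no point is filled, and in spermatocytes 25 filled points lie to the right of 0 and 4 to the left.

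The fibrillar collagens of connective tissue showed the largest rises. Col1a1 (chr11:94936224-94953042, plus strand), a chain of collagen I, stood at 1219, 1408, 89.3 and 1021 CPM in KO and at 11.7, 10.6, 10.8 and 10.0 CPM in WT spermatocytes, replicates 1 to 4. Even the lowest KO library was 7.65 times the highest WT library. The log2 fold change was 6.44 ± 0.75 (SE, adjusted p = 6.7e-05). Its partner chain Col1a2 (chr6:4504814-4541544, plus strand) stood at 1889, 1446, 148 and 1698 CPM in KO and at 17.2, 18.3, 11.8 and 15.96 CPM in WT, and its log2 fold change was 6.35 ± 0.73 (adjusted p = 5.8e-05). Col3a1 (chr1:45311538-45349706, plus strand), the collagen III chain of elastic tissues, reached its highest value in KO replicate 2, with 1391, 2143, 121 and 1270 CPM in KO against 13.4, 16.8, 11.6 and 13.8 CPM in WT (log2 fold change 6.47 ± 0.77, adjusted p = 7.3e-05). None of these 3 genes had overlapping groups.

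The 3 collagen V chains and Col11a1, whose products sit inside fibrils and control their width, rose as well. Col5a1 stood at 306, 197, 67.3 and 273 CPM in KO and at 4.48, 9.38, 16.6 and 4.21 CPM in WT, with a log2 fold change of 4.599 ± 0.61. The WT replicate 3 value was the highest of its group and the KO replicate 3 value the lowest of its own, 4.05 times apart. Col5a2 and Col5a3 rose by 5.47 ± 0.74 and 4.85 ± 0.60 on the log2 scale and Col11a1 by 3.94 ± 0.70. Col27a1, a fibrillar collagen of cartilage, was the member nearest to the threshold on the called side (log2 fold change 2.25 ± 0.54, adjusted p = 0.0038). Its call was lost in 4 of the 8 fits that left out a library, namely KO replicate 1 and WT replicates 1, 2 and 4, and also with the replicate block and with replicates 1 and 4 summed. Col11a2 and Col24a1 were not called, with log2 fold changes of 1.03 ± 0.31 (adjusted p = 0.013) and -1.05 ± 0.59 (adjusted p = 0.13).

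All 6 basement membrane collagens rose, by 4.09 to 5.56 on the log2 scale. Col4a1 stood at 657, 217, 62.9 and 587 CPM in KO and at 11.3, 11.5, 8.42 and 11.4 CPM in WT spermatocytes (log2 fold change 5.16 ± 0.67, adjusted p = 1.2e-04). Col4a2 had the same order of libraries in KO, with 525, 160, 51.2 and 462 CPM in KO and 6.98, 8.04, 6.35 and 5.64 CPM in WT. In contrast to Col1a1 and Col3a1, both were lower in KO replicate 2 than in replicates 1 and 4, at 0.349 and 0.324 times their mean. Col4a3 and Col4a4, the chains of specialised basement membranes such as that of the kidney filter, rose by 4.87 ± 0.71 and 4.09 ± 0.70, and the X-linked pair Col4a5 and Col4a6 rose by 5.37 ± 0.70 and 5.56 ± 0.73.

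Within the beaded filament collagens, Col6a1, Col6a2 and Col6a3, which together form collagen VI around cells, rose by 5.73 ± 0.72, 5.52 ± 0.68 and 5.79 ± 0.75 on the log2 scale. Col6a1 stood at 550, 283, 40.7 and 483 CPM in KO and at 6.38, 8.04, 4.79 and 6.36 CPM in WT. The 3 later members of the family behaved differently. Col6a5 stood at 175 CPM in KO replicate 2 and at 0.632, 0.656 and 0.689 CPM in replicates 1, 3 and 4, against 2.75 to 9.04 CPM in WT, so that 3 KO libraries were below every WT library and 1 far above. It was not called (log2 fold change 2.89 ± 1.68, adjusted p = 0.15). Its direction rested on replicate 2: without that KO library the log2 fold change was -3.16 and was called lower (adjusted p = 0.0013), and with the replicate block it was -2.04. Col6a6 was also highest in KO replicate 2 (38.9 CPM against 1.36 to 9.03 CPM in the other KO libraries and 0.176 to 0.809 CPM in WT) and was called higher (5.34 ± 1.03). That call was lost with the replicate block (adjusted p = 0.014). Col6a4 overlapped between the genotypes, with 4.41 to 66.4 CPM in KO and 6.16 to 23.7 CPM in WT.

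Multiplexins carry heparan or chondroitin sulfate chains at the edge of basement membranes. Col15a1 rose by 5.67 ± 0.74, with 339, 112, 26.1 and 289 CPM in KO and 2.99 to 5.14 CPM in WT spermatocytes. Col18a1 rose less, by 2.39 ± 0.49, and its groups overlapped by 1 library, since KO replicate 3 stood at 18.6 CPM and WT replicate 3 at 19.5 CPM. Its call was lost with the replicate block and when replicates 1 and 4 were summed. Of the transmembrane collagens Col13a1 (5.18 ± 0.85) and Col23a1 (3.43 ± 0.75) rose, and Col17a1 of epithelial anchoring junctions did not pass (0.64 ± 0.34). Col7a1, which forms anchoring fibrils below epithelia, rose by 1.58 ± 0.33, Col8a2 by 3.88 ± 0.86 and Col9a2 by 4.51 ± 0.94. Summing replicates 1 and 4 ended the calls of Col7a1 and Col23a1, and DESeq2 did not call Col9a2.

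A small set of collagens went the other way and was lower in KO spermatocytes. Markers of late germ cells were lower in the same libraries: all 5 pachytene genes fell (sums above), and so did all 6 spermatid genes, with 2.35 to 10.8 CPM in KO and 62.4 to 1458 CPM in WT. Their part in the values of these collagens was not tested. Col16a1 (chr4:130047840-130099283, plus strand), a fibril-associated collagen, stood at 60.4, 40.6, 13.9 and 54.2 CPM in KO and at 258, 196, 160 and 251 CPM in WT, a fall of 2.35 on the log2 scale (SE 0.41, adjusted p = 6.1e-04). Col2a1 (chr15:97975602-98004695, minus strand), the fibrillar collagen of cartilage, stood at 3.79, 6.68, 3.92 and 3.77 CPM in KO and at 126, 26.5, 38.4 and 110 CPM in WT, a log2 fold change of -4.05 ± 0.54 (adjusted p = 1.4e-04). Col9a1 (chr1:24177610-24252684, plus strand) stood at 0.720, 0.235, 0.202 and 0.780 CPM in KO and at 13.1, 9.60, 4.63 and 12.7 CPM in WT (log2 fold change -4.36 ± 0.60, adjusted p = 1.7e-04). Col20a1 (chr2:180986535-181018363, plus strand), another fibril-associated collagen, stood at 10.0, 5.97, 6.76 and 8.80 CPM in KO and at 29.0, 28.2, 19.6 and 32.8 CPM in WT (log2 fold change -1.80 ± 0.29, adjusted p = 4.0e-04). No KO library reached a WT library for any of the 4 genes.

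These 4 genes kept their calls in each of the 15 alternative fits of this comparison. Col2a1 was highest in WT replicates 1 and 4, the libraries that resembled each other. Col25a1, a transmembrane collagen of neurons, was the uncalled member nearest to the threshold, at 6.43, 1.94, 2.03 and 5.17 CPM in KO and 13.6, 11.3, 6.98 and 16.9 CPM in WT (log2 fold change -1.65 ± 0.49, adjusted p = 0.012). It was called in 7 of 15 alternative fits. Of the members not described above, Col8a1 (2.35 ± 0.72), Col26a1 (2.14 ± 0.68), Col9a3 (0.65 ± 0.47) and Col28a1 (-0.72 ± 0.53) were not called, though Col8a1 was called in 4 and Col26a1 in 5 of 15 alternative fits, and Col10a1 stayed at or under the floor of 3 counts in each spermatocyte library.

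**Figure D4:**
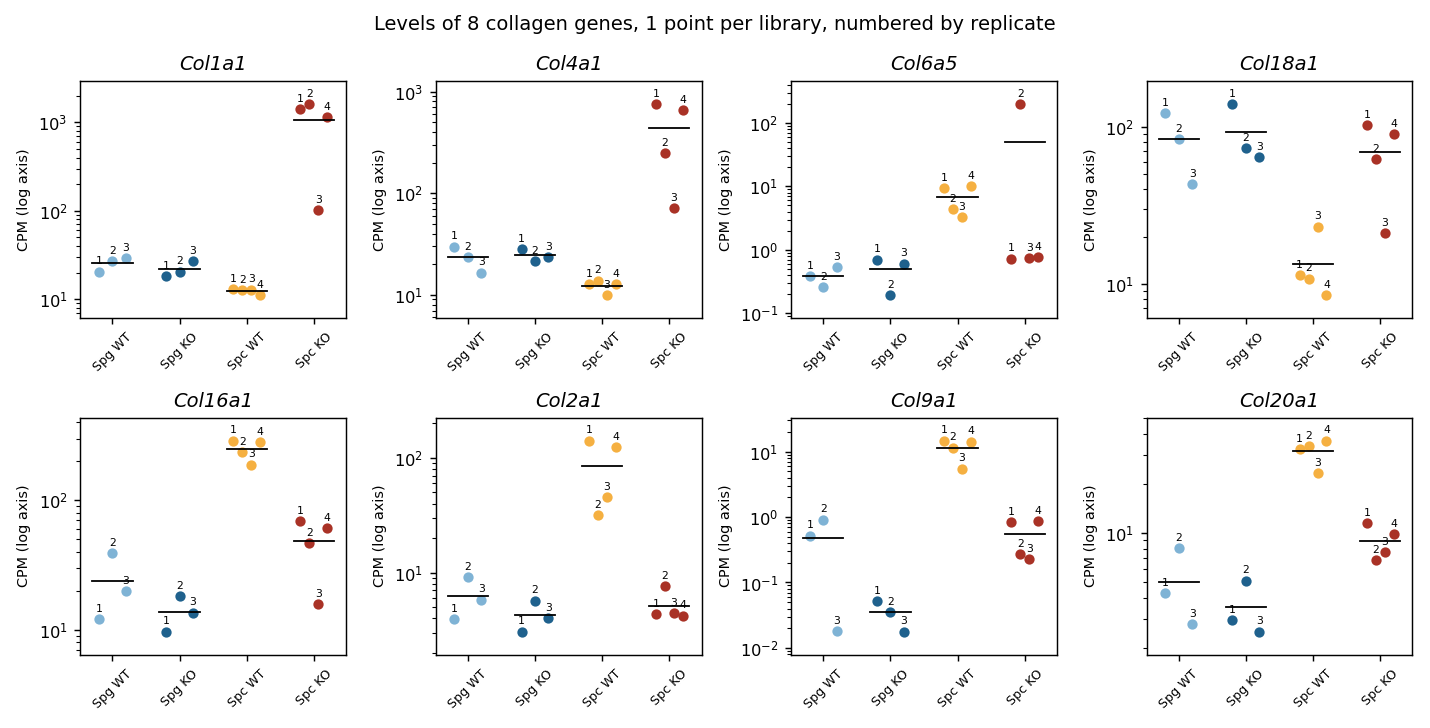
CPM scaled over all libraries (log axis) of 8 collagen genes, with 1 point per library, its replicate number above it and a line at the group mean. Col1a1 and Col4a1 are highest in the 4 KO spermatocyte libraries, Col6a5 stands out in KO spermatocyte replicate 2 alone, and Col16a1, Col2a1, Col9a1 and Col20a1 are highest in WT spermatocytes.

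The 4 KO spermatocyte libraries were not alike in their collagens. Among the 25 genes called higher, replicate 3 was the lowest KO library for 22 and still stood above every WT library for 24. Its values were a median of 0.114 times the mean of replicates 1 and 4. Replicates 1 and 4 stayed within 0.981 to 1.45 times each other. Replicate 2 was above the mean of replicates 1 and 4 for 8 of the 25 genes and below it for 17. The genes that stood out in replicate 2 included uncalled members, with Col6a5 at 264 times, Col12a1 at 14.2 times and Col14a1 at 2.67 times the mean of replicates 1 and 4. Col12a1 and Col14a1 encode fibril-associated collagens of dense connective tissue, and Col12a1 reached 16.9 CPM in replicate 2 against 1.18 to 1.20 CPM in the other KO libraries and 0.629 to 3.74 CPM in WT. Without replicate 2 the log2 fold change of Col12a1 was -1.03 and not 1.06.

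Ratios between chains within a library do not depend on the scaling between libraries. Per kilobase, Col1a1 to Col1a2 ran from 1.14 to 1.84 in KO spermatocytes and from 1.096 to 1.74 in their WT counterparts but was 6.79 to 27.3 in spermatogonia of both genotypes. Col6a1 to Col6a2 ran from 2.35 to 4.05 in KO spermatocytes and from 1.99 to 4.31 in their WT counterparts, and was 0.161 to 0.414 in spermatogonia. For the head-to-head pair Col4a1 and Col4a2, whose start regions are printed above, the ratio was 0.851 to 1.25 in spermatogonia, 1.18 to 1.80 in WT and 1.09 to 1.20 in KO spermatocytes. The proportion of interstitial to basement membrane collagen set KO replicate 2 apart, with Col3a1 to Col4a1 at 7.52 against 1.46 to 1.64 in the other KO libraries and 0.903 to 1.11 in WT.

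Marker genes of other testis cells moved with the collagens in spermatocytes. Their sums are on CPM scaled over all libraries, and each count of genes called stands against 27.4% of all features called higher and 30.1% called lower. The sum over 4 interstitial stromal genes (Nr2f2, Pdgfra, Pi16 and Tcf21) was 935, 195, 89.5 and 811 CPM in KO replicates 1 to 4 and 14.02 to 20.01 CPM in WT, and 4 of 4 genes rose, led by Pdgfra (log2 fold change 6.09 ± 0.78). Over 7 Leydig cell genes it was 496, 68.4, 83.8 and 411 CPM against 15.8 to 34.9 CPM, and 7 of 7 rose, led by the hormone receptor gene Lhcgr (5.0 ± 0.89), whose call was lost with the replicate block. For 7 macrophage genes it was 108, 189, 47.0 and 105 CPM against 5.29 to 20.2 CPM, again with 7 of 7 higher, led by C1qa (4.25 ± 0.56). Replicates 1 and 4, with the most basement membrane collagen, also had the most stromal and Leydig marker RNA, and replicate 3 had the least stromal marker RNA of the KO libraries. Replicate 2 did not follow this order: on the same scale its collagen sum of 8208 CPM was near the 8386 CPM of replicate 4, but its stromal sum was far lower and its Leydig sum was the lowest of the KO libraries.

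Other cell types gave a mixed result. The sum over 5 peritubular myoid genes was highest in KO replicate 2, at 163 CPM against 10.6 to 27.7 CPM in the other KO libraries and 14.6 to 39.8 CPM in WT, with Acta2 and Myh11 higher and Actg2 lower. The call of Acta2 was lost in 7 of 15 alternative fits, among them those without KO replicate 2 or any 1 WT library, and that of Myh11 in 4, among them those without WT replicate 1, 3 or 4. That of Actg2 was lost with the replicate block. KO replicate 2 was also the library with the highest Col6a5, Col6a6, Col12a1 and Col14a1. Sertoli markers summed to 117 to 411 CPM in KO and 55.0 to 162 CPM in WT, and 1 of 8, Aard, was called higher, a share below the 27.4% of all features, and that call was lost in 7 of 15 alternative fits, among them those without KO replicate 1 or 4 or WT replicate 1, 2 or 4. Endothelial markers summed to 21.1 to 147 CPM in KO and 9.38 to 10.6 CPM in WT, with Cdh5 and Tek higher of the 5. Most of the KO sum was Cdh5 in replicates 1 and 4 (135 and 122 CPM), while Vwf stood at 0.546 to 3.55 CPM in KO and 3.55 to 4.10 CPM in WT, and Pecam1 and Kdr were at 16.04 and 13.76 CPM in KO replicate 2 and at 1.16 to 2.00 CPM in the other KO libraries. Each gene of these 6 lists had counts in both groups of spermatocyte libraries, and none was at 0 in a whole group. B2m, the gene of the protein used to gate cells out of the spermatogonia sort, was at 20.7 to 102 CPM in KO and 5.70 to 12.5 CPM in WT spermatocytes on the same scale. The part of these cells in the collagen values was not tested.

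**Figure D5:**
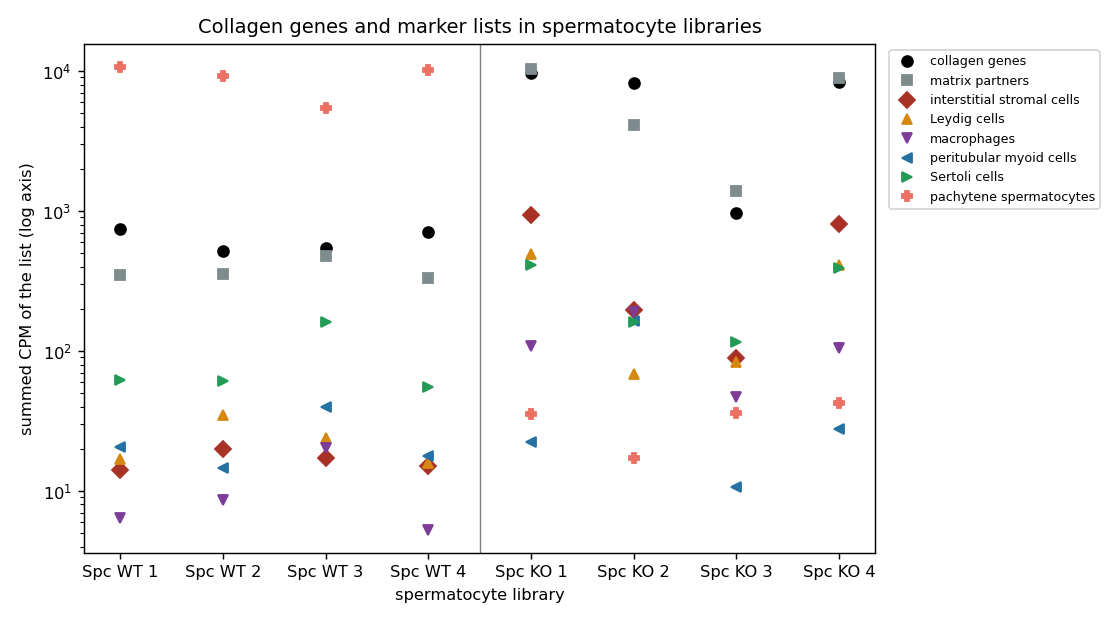
Summed CPM (log axis, scaled over all libraries) of the collagen genes and 7 gene lists in the 8 spermatocyte libraries, 1 symbol per list and library. The collagen, stromal and Leydig sums are all lower in KO replicate 3 than in replicates 1 and 4, in KO replicate 2 the collagen sum stays high at 8208 CPM while the stromal and Leydig sums are 195 and 68.4 CPM, the peritubular list is highest in KO replicate 2, and the pachytene list is at 17.2 to 42.6 CPM in KO against 5476 to 10673 CPM in WT.

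Genes that make, bind and remove collagen were read from lists in the same comparison. Of 28 tested genes of collagen maturation and crosslinking, 23 rose and 1 fell, against 27.4% and 30.1% of all features. Lox, which starts crosslinking, rose by 6.05 ± 0.97 on the log2 scale, the collagen chaperone gene Serpinh1 by 5.72 ± 0.70 and Loxl2 by 5.51 ± 0.66. Mia3, a gene for export of collagen from the endoplasmic reticulum, fell by 1.43 (SE 0.28), a call lost with library totals. Among matrix partners, 21 of 23 rose, led by the small proteoglycans Lum (6.13 ± 0.77), Dcn (6.03 ± 0.71) and Fmod (5.97 ± 1.00). Dcn stood at 1570, 407, 169 and 1403 CPM in KO and at 10.9 to 14.96 CPM in WT.

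Collagen receptor genes were called less evenly than the genes of collagen turnover. All 8 tested turnover genes were higher in KO spermatocytes (27.4% of all features), among them the gelatinase gene Mmp2 (6.25 ± 0.83) and the inhibitor gene Timp1 (4.58 ± 0.64), and the fibroblast protease gene Fap was at 0 in each WT library. Of 9 tested receptor genes 5 rose (27.4% of all features) and 1 fell (30.1%). Those that rose included the collagen-binding receptor kinase Ddr2 (6.75 ± 0.91), Itgb1 (3.49 ± 0.55) and Lair1 (3.32 ± 0.77, a call lost without WT replicate 4, with the replicate block and with replicates 1 and 4 summed), and the integrin gene Itga1 was the one that fell (-1.96 ± 0.42), a call lost with library totals and with replicates 1 and 4 summed. In spermatogonia no gene of the 15 lists was called between the genotypes.

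Whether the genotype effect differed from stage to stage was asked with an interaction term in the fit of all 14 libraries. It was called for 21 of 43 members, of which 20 had a more positive effect in spermatocytes (10.7% of all features) and 1 a more negative one (14.3%). The median over the members was 3.65 against 0.19 over all features. The 20 genes were 7 fibrillar, 6 basement membrane and 4 beaded filament collagens with Col13a1, Col15a1 and Col23a1, led by Col1a1 (difference 6.65 ± 0.86 on the log2 scale, adjusted p = 1.8e-04) and Col1a2 (6.64 ± 0.96, adjusted p = 2.9e-04). Col2a1 was the member with the more negative effect (-3.48 ± 0.69, adjusted p = 0.0018). For Col9a1, Col16a1 and Col20a1, as for all 9 fibril-associated collagens, the difference between the stages was not called. Col6a6 lay nearest inside the threshold (adjusted p = 0.0053) and Col8a2 nearest outside (adjusted p = 0.011). With the replicate block the call of Col6a6 was lost and Col8a2 was called, and over 21 alternatives these calls changed in 8 for each gene. With spermatocyte replicates 1 and 4 summed the count was 17, and Col4a3, Col4a4 and Col23a1 lost their calls there, as Col4a3 and Col4a4 did without KO spermatogonia replicate 2, Col4a4 without replicate 3 and Col23a1 without replicate 1. Over all features, 3543 of 24706 were called with replicates 1 and 4 summed. Leaving out single libraries gave 19 to 24 member calls, where 3823 of 26139 to 9090 of 24967 features were called.

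Wild-type spermatocytes were compared with wild-type spermatogonia. Stage, age of the animals and the way of sorting cannot be told apart in this comparison, in that of the KO cells or in the interaction. Of 43 members 10 were called higher in WT spermatocytes (28.9% of all features) and 6 lower (22.5%). Library totals in place of TMM factors gave 5 higher (18.3% of all features) and 11 lower (34.8%), with the median of all features at -0.72 in place of 0.06, so the balance of directions depends on the scaling. The sum of all members moved from 485 ± 48.2 to 432 ± 50.7 unscaled CPM, and on the TMM scale from 390 to 627.8 CPM. On the scale over all libraries, Col16a1 rose from 23.8 to 248 CPM (log2 fold change 3.38 ± 0.51, adjusted p = 8.0e-05), Col2a1 from 6.31 to 85.3 CPM (3.76 ± 0.55, adjusted p = 7.1e-05), Col20a1 from 5.04 to 31.5 CPM (2.64 ± 0.41) and Col9a1 from 0.484 to 11.5 CPM (4.56 ± 0.87). The groups of libraries did not overlap for any of these 4 genes. They are the same genes that were lower in KO spermatocytes, and both comparisons use the same WT spermatocyte libraries.

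Other members higher in WT spermatocytes were Col6a4, Col14a1, Col19a1 and Col25a1 (log2 fold changes 2.04 to 3.55), and Col1a2 and Col3a1 with adjusted p of 0.0087 and 0.009997. Col3a1 was the nearest to the threshold, and its call was lost in 15 of 20 alternative fits and that of Col1a2 in 14. The calls of Col19a1, Col14a1, Col25a1 and Col6a4 were lost in 6, 4, 3 and 2 of the 20, and leaving out WT spermatogonia replicate 3 was enough to end each of them. Lower in WT spermatocytes were Col5a1, which went from 71.0 to 10.2 CPM (-2.80 ± 0.52), Col18a1, from 83.4 to 13.4 CPM (-2.63 ± 0.52), and Col5a3, Col8a2, Col11a1 and Col13a1 (-1.88 to -3.94). The call of Col5a3 was lost in 4 of the 20, among them without WT spermatocyte replicate 1, 2 or 4. Without WT spermatogonia replicate 3 the calls fell to 10, where 10944 of all 26178 features were called. Without KO spermatocyte replicate 3, which enters through the shared spread, they rose to 22, where 13083 of all 25092 features were called.

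Between the stages in KO cells, 17 of 43 members were higher in spermatocytes (2.95% of all features) and none was lower (0.0355%). They were all 6 basement membrane collagens, Col1a1, Col1a2, Col3a1, Col5a2 and Col5a3, Col6a1 to Col6a4, Col15a1 and Col23a1. Col1a2 had the largest difference, from 3.12 CPM in KO spermatogonia to 1476 CPM in KO spermatocytes (log2 fold change 8.89 ± 0.91, adjusted p = 2.7e-04). Col18a1 and Col5a1, the leading collagens of spermatogonia, were not called, and that of Col18a1 was -0.42. This count rested on few libraries: it was 10 without KO spermatogonia replicate 1 (0.832% of all features) and 8 without replicate 2 (0.605%) or replicate 3 (0.428%). DESeq2 called 24 (7.41% of the features it fitted), and 31 had an unadjusted p under 0.05 in edgeR (24.5% of all features).

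Col19a1 (chr1:24261890-24587472, minus strand), a rare fibril-associated collagen, was the member nearest to a call in spermatogonia. Spermatogonia gave 82, 45 and 16 counts (KO) and 6, 4 and 9 counts (WT), with no overlap, and the log2 fold change was 2.78 ± 0.66 (adjusted p = 0.17 in edgeR). DESeq2 gave an adjusted p of 0.0097 and the other alternatives 0.068 to 0.48. In spermatocytes the counts were 38, 11, 64 and 42 in KO and 33, 9, 41 and 26 in WT and the log2 fold change was -0.05 ± 0.59, with a sign that changed in 5 of 15 alternatives. The gene holds 9 of the 62 young retrotransposon copies that lie in collagen genes. Among them are 3 adjoining L1Md_A fragments on the opposite strand (chr1:24496345-24500000, chr1:24500001-24501897 and chr1:24501898-24502893), a young LINE1 subfamily. The fragment nearest to the start of the gene stood at 1.93, 0.671 and 1.68 TPM in KO and at 0 in each WT library of spermatogonia, and at 19.8, 6.57, 12.7 and 19.99 TPM in KO and 0 in WT spermatocytes. TPM values here are scaled over TE copies alone. Between the genotypes, these 3 fragments were separated at both stages and the Col19a1 counts in spermatogonia alone. The fragment at chr1:24496345-24500000 stood at 2.34, 1.07 and 0.528 TPM in KO spermatogonia, in the same order of libraries as the Col19a1 counts. In the other fragments the order of the KO libraries differed. The part of the copies in the gene's counts was not tested. Col23a1 holds 6 young copies, which summed to 3.90 TPM in KO and 0.028 TPM in WT spermatogonia, and its own level was lower in each KO library (0.706 to 0.915 CPM) than in each WT library (1.02 to 1.82 CPM), a log2 fold change of -0.83 that was not called.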

How the data were processed

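Polyadenylated RNA of 14 libraries of sorted mouse germ cells was sequenced with a stranded kit. The authors aligned reads to GRCm38 with STAR 2.7.3a and GENCODE M25, kept reads with up to 100 alignments and assigned them to genes and TE subfamilies with TEtranscripts, and the deposited values are raw counts. The authors made the TPM values of single TE copies with TElocal, scaled over TE copies alone. Columns of the authors' comparison, which hold their log2 fold changes, test statistics, mean signal and p-values, were not used. Spermatogonia columns numbered rep4 belong to the samples titled replicate 3. A further spermatogonia library per genotype, excluded by the authors for RNA quality, was not analysed here. No column was left without a sample.

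Counts were tested by the two-sided quasi-likelihood test of edgeR 4.0.16 under R 4.3.3, after its filterByExpr step and with TMM factors. The p-values were adjusted by the Benjamini-Hochberg method across every gene and TE subfamily in the fit, and 0.01 was the limit for a call. Genotypes were compared in a fit of each stage alone, and the interaction and the comparisons between stages over all 14 libraries on features in both tables. Standard errors were derived from the log2 fold change and its F statistic. CPM of single genes beside genotype differences was scaled within the stage. Sums over gene lists, B2m, levels per kilobase and CPM beside differences between stages were scaled over all libraries. Positions and exon lengths came from GENCODE M21 on GRCm38, where 41 of 44 members had the same identifier version. Other genes overlapped 15 members on the same strand, where counts may be split. A count of at most 3 in a library was treated as the floor. Alternatives used DESeq2 1.42.0, other scalings and filters, an adjusted p under 0.05, a replicate block, summed replicates 1 and 4 and each library left out. The deviations of same-numbered KO and WT libraries correlated in spermatogonia at r = 0.52, 0.17 and 0.18, and those of other pairs at -0.45 to 0.26. KO replicate 2 went more with WT replicate 3 than with WT replicate 2. These values do not settle whether the numbers pair the libraries, and the blocked fit also called no member. In spermatocytes r was -0.005 to 0.21 for same-numbered libraries and -0.18 to 0.13 for other pairs, and pairing was not settled there either.

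The text names the 12 most abundant members, up to 8 called members with the smallest p per comparison and direction, members nearest the threshold, up to 3 called genes per list and direction, and other members by class. Col6a5, Col12a1, Col14a1 and the TE copies were chosen after their values were seen. The members and lists were chosen with earlier results of these data known. One gene of the stromal list is not reported here and was left out of its sums and counts. The test was tried on simulated data. Tables and plots used Python 3.11.15, pandas 2.3.3 and matplotlib 3.10.9.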

Additional observations from a re-analysis of the deposited data

Results flagged for a closer look

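In the spermatocyte groups of 4 libraries, 88 sets of values were screened for a library set apart by more than Dixon's 95% critical value, and 12 were. The rate of about 1 in 20 by chance holds for independent libraries and sets. Replicates 1 and 4 resembled each other and the sets share libraries, so 12 of 88 cannot be read against that rate. In KO, replicate 2 stood apart high for Col6a5 (175 CPM), Col12a1 (16.9 CPM), Col9a2 (7.16 CPM) and Col2a1 (6.68 CPM). KO replicate 3 stood apart low for the summed collagen share (1239 unscaled CPM), Col6a2 (22.6 CPM), Col5a2 (6.79 CPM) and Col28a1 (0.639 CPM). In WT, replicate 3 stood apart low for Col4a1 (8.42 CPM) and high for Col26a1 (1.29 CPM) and Col6a6 (0.809 CPM), and replicate 2 low for Col19a1 (0.226 CPM).

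The KO effect differed between the libraries labelled spermatocytes and spermatogonia, which also differ in age and sort, by the interaction test for 21 members. The log2 difference, spermatocytes minus spermatogonia, was 6.65 for Col1a1, 6.64 for Col1a2, 6.01 for Col5a2, 5.97 for Col3a1, 4.61 for Col5a3, 4.59 for Col5a1 and 4.36 for Col11a1 among the fibrillar collagens. Basement membrane collagens gave 5.40 for Col4a2, 5.30 for Col4a6, 5.16 for Col4a5, 5.07 for Col4a1, 4.68 for Col4a3 and 4.35 for Col4a4. Beaded filament collagens gave 5.92 for Col6a1, 5.86 for Col6a3, 5.33 for Col6a2 and 5.07 for Col6a6, whose call was lost with the replicate block. It was 5.52 for Col15a1, 5.30 for Col13a1 and 4.21 for Col23a1, and -3.48 for Col2a1.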

How the results depend on the processing

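For KO against WT in spermatogonia, the count of collagen genes called was 0 in edgeR under each alternative and with each library left out, and 1 with the DESeq2 Wald test (Col19a1). In spermatocytes 29 members were called, and 28 to 31 with a library left out, 25 with replicates 1 and 4 summed, 32 with DESeq2 and 33 with library totals or at an adjusted p under 0.05. Over all features 13124 of 22848 were called there, and 10892 of 23868 to 14396 of 23798 with a library left out. The count was 8874 of 23213 with replicates summed, 17393 of 37986 with DESeq2, 13280 of 22848 with library totals and 16311 of 22848 at an adjusted p under 0.05. The interaction gave 21 calls, 19 to 24 with a library left out and 17 with replicates 1 and 4 summed. WT spermatocytes against WT spermatogonia gave 16 and 10 to 22, where 13026 of all 25318 features were called, and 10820 of 26105 to 13619 of 24967 with a library left out. KO spermatocytes against KO spermatogonia gave 17 and 8 to 20. With the replicate block, 27 members were called in spermatocytes (22 higher and 5 lower), 22 in the interaction and 0 in spermatogonia. The block ended the calls of Col18a1, Col27a1 and Col6a6, and added 1 lower call. On the sum of TMM-scaled CPM, the summed collagen share was 390 in KO spermatogonia, 390 in WT spermatogonia, 627.8 in WT spermatocytes and 6823 in KO spermatocytes, in place of 487, 485, 432 and 8150 unscaled CPM, so that the ratio of KO to WT spermatocytes was 10.9 in place of 18.9. Over the printed fold changes and their alternatives, 2042 values kept their direction and side of the threshold, 137 lost a call, 35 gained one and 18 changed sign; the cause was not tested. Col6a5 in spermatocytes was at -2.04 with the block and ranged from -3.16 to 3.31 with 1 library left out, the lowest without KO replicate 2, where it was called lower. Col12a1 was at -0.36 with the block and at -1.03 to 1.40 with 1 library left out, and Col14a1 at -0.042 to 0.76, both lowest without KO replicate 2. Col19a1 was at 0.63 with library totals, 0.0104 with replicates 1 and 4 summed and -0.37 to 0.28 with 1 library left out, positive without KO replicate 2 or WT replicate 1 or 3. Col22a1 was at 0.50 with library totals and -0.47 to 0.34 with 1 library left out, positive without KO replicate 1 or 4 or WT replicate 3. In spermatogonia Col18a1 ranged from -0.31 to 0.47 and Col5a1 from -0.20 to 0.13 with 1 library left out, both changing sign without KO replicate 1 or WT replicate 3. Counts over all features moved as well, from 16 to 613 with DESeq2, 157 without the filter, 119 with the block and 4 to 24 with a library left out in spermatogonia, from 6314 to 9931 with DESeq2 and 3543 with replicates summed in the interaction, and from 756 to 2385 with DESeq2 and 112 to 1014 with a library left out between the KO stages.

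Limits are those of bulk libraries: with 3 or 4 libraries per group, 1 library can move a mean. In KO spermatocytes replicate 3 was the lowest for 22 of 25 members called higher, and replicate 2 stood far above the others for Col6a5 and Col12a1. Genes under 3 counts, such as Col10a1, cannot be read.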
